A study of Homo sapiens with 6 samples.

Results

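The 7 genes described here are FIBIN, PLCXD3, CLSTN2, CAPN5, CCDC85A, ACSM3 and GRB10, selected by symbol from the 29804 gene symbols of an RNA-seq count table of 22Rv1 cells. They were picked because their counts were high in cells treated repeatedly with phleomycin and because none of them is among the textbook targets of the transcription factor ATF4, so the height of their treated libraries over the controls is how they were chosen and not a finding. All 7 passed the filter on low counts, which left 14672 genes for testing. 22Rv1 is a human prostate carcinoma line, and phleomycin is a radiomimetic glycopeptide of the bleomycin family that breaks DNA. Parental wild type cells (WT) were untreated and harvested at week 0. Age matched cells (AM) were kept untreated in culture in parallel until the end of week 6. Cells named 6WP received phleomycin at 1 µg/ml each week day during the same 6 weeks. Each group had 2 libraries, described as biological replicates, and whether these came from separate 6-week courses is not stated in the sources used here, so all p-values measure the spread between these libraries only. All cells derive from 1 established line, and the AM and WT groups share the line but differ in time in culture.

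Library totals lay between 21222201 and 35311945 counts, and 3 counts, taken as the smallest detectable amount, equalled 0.0883 to 0.138 CPM (counts scaled to the library total, with TMM factors), a floor that covers counting error only. The 6WP libraries were further apart than the other pairs. Where counting error alone would give 1, the chi-square per degree of freedom between replicates reached 5.83 (WT), 9.36 (AM) and 67.2 (6WP), and the share of tested genes that differed by more than 1 on the log2 scale was 1.54%, 1.68% and 5.81%. Prostate luminal markers were present in every library, with HOXB13 at 538 and 613 CPM in WT, 437 and 531 in AM and 579 and 719 in 6WP cells, and KLK3 at 49.3 CPM or more in all 6. The 7 markers of fibroblasts and stroma summed to 10.4 CPM or less in every library, and 3 of the 7 leukocyte and endothelium markers, PTPRC among them, had 0 counts in all 6 libraries. In bulk RNA, fewer cells that express a gene and less RNA per cell cannot be told apart.

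ATF4 is the effector of the integrated stress response: when eIF2alpha is phosphorylated under amino acid shortage, endoplasmic reticulum stress or mitochondrial stress, ATF4 is translated and raises genes of amino acid synthesis, amino acid transport and redox balance. The 7 genes have other textbook roles. GRB10 is an imprinted adaptor protein that binds the insulin and IGF1 receptors, restrains their signalling and is a substrate of mTORC1. ACSM3 is a mitochondrial medium-chain acyl-CoA synthetase that activates fatty acids, and CAPN5 is a calcium-dependent cysteine protease of the calpain family. PLCXD3 carries the X domain of phosphatidylinositol-specific phospholipases C. CLSTN2 is a calsyntenin, a cadherin-like membrane protein known from postsynaptic membranes, whose family is cleaved by alpha- and gamma-secretases. FIBIN is a secreted protein named after its role in fin bud initiation in fish, and CCDC85A is a coiled-coil protein.

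The genes lie on 6 chromosomes of GRCh38. FIBIN is a gene with 1 exon at chr11:26994112-26997087 on the plus strand, and CAPN5 lies on the same chromosome at chr11:77066961-77126155, also on the plus strand. GRB10 spans chr7:50590063-50793462 on the minus strand with 26 annotated transcripts, and ACSM3 spans chr16:20610243-20797581 on the plus strand. CLSTN2 is the longest of the group at 642213 bp, chr3:139935185-140577397 on the plus strand. PLCXD3 is at chr5:41306952-41510601 on the minus strand and CCDC85A at chr2:56183990-56386172 on the plus strand. Exons of CCDC85A overlap exons of a long noncoding RNA on the same strand over 1983 bp and of another on the opposite strand over 277 bp, and whether the deposited counts separate them is not stated. Exons of ACSM3 overlap those of ERI2, an exonuclease gene on the opposite strand, over 837 bp of the main ACSM3 transcript. ERI2 did not pass the test in any comparison, with a log2 fold change of 0.00 (adjusted p = 0.991) in 6WP against WT, -0.28 (adjusted p = 0.252) in 6WP against AM and 0.28 (adjusted p = 0.253) in AM against WT cells. In both comparisons with AM its values had the opposite sign to those of ACSM3 given below.

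The 7 genes had several orders of the 3 groups. In 6 of the 7 genes, both 6WP libraries lay above both WT libraries, a property that 25.5% of all tested genes had, and in 7 of 7 both lay above both AM libraries, which held for 33.8% of tested genes. These counts follow from how the genes were picked and carry no test. The exception was PLCXD3, whose 6WP libraries lay on either side of its WT libraries. In the AM cells, FIBIN was above, CAPN5 overlapped, and the other 5 were below their WT libraries. They also differed in how closely the 6WP libraries agreed, from 1.01-fold apart in ACSM3 to 3.66-fold apart in CLSTN2.

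**Figure D1:**
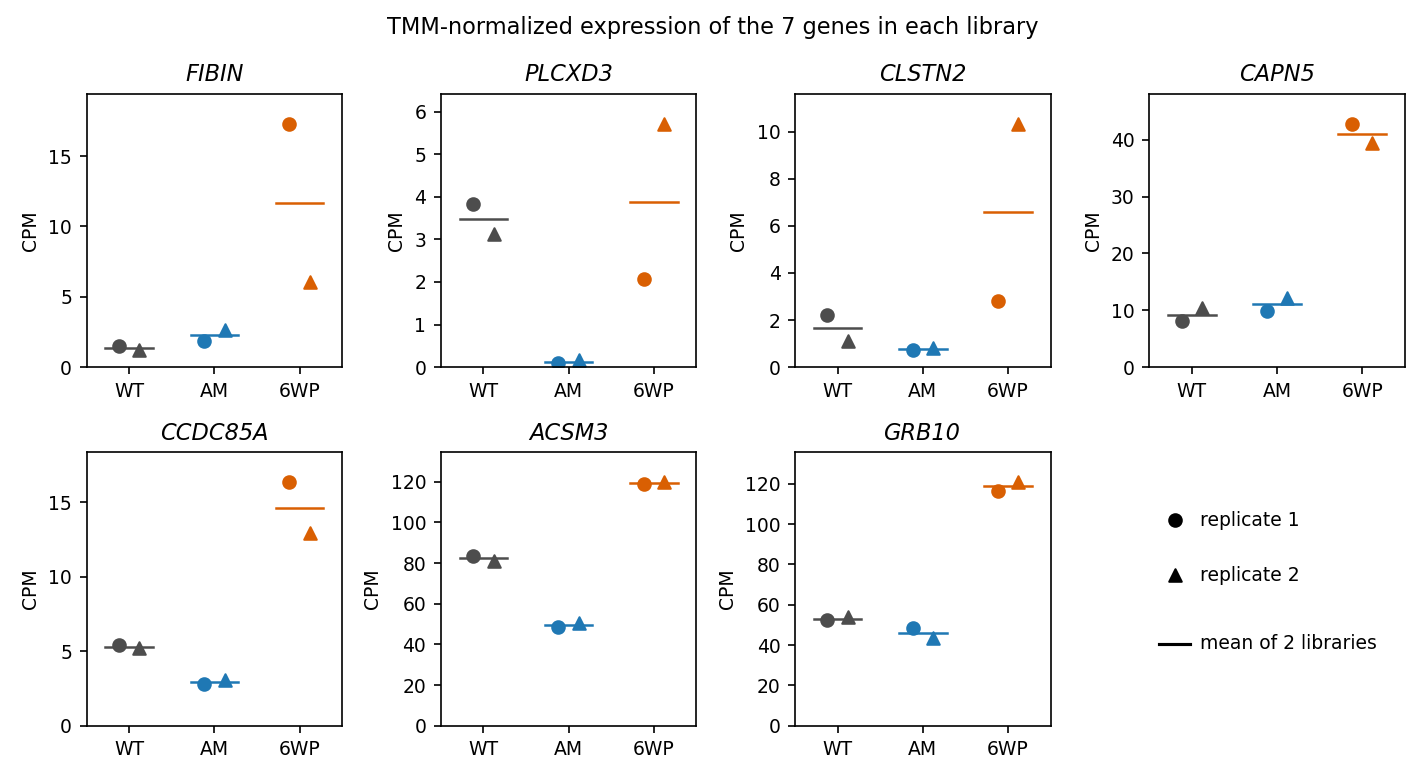
TMM-normalized expression in CPM (y axis, linear, from 0, a scale of its own for each gene) of the 7 genes in the 6 libraries, with circles for replicate 1, triangles for replicate 2 and a line at the mean of 2 libraries. ACSM3 and GRB10 were nearly identical in both 6WP libraries, PLCXD3 was at 0.09 and 0.18 CPM in AM cells, and FIBIN was high in 6WP replicate 1 while PLCXD3 and CLSTN2 were high in 6WP replicate 2.

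GRB10, the receptor adaptor, was at 52.24 and 54.02 CPM in WT, 48.52 and 43.57 CPM in AM, and 116.58 and 120.63 CPM in 6WP cells. Both 6WP libraries stood well above the other 4, and the AM libraries lay slightly under the WT libraries. The ratio of mean levels was 2.23 between 6WP and WT and 2.58 between 6WP and AM, and the fitted log2 fold changes were 1.16 ± 0.11 (SE) and 1.37 ± 0.11. The AM level did not pass the test against WT (log2 fold change -0.21 ± 0.11, adjusted p = 0.215 in edgeR's quasi-likelihood test over all tested genes). Its 6WP libraries held 3224 and 3423 counts, and after scaling replicate 2 was 1.03 times replicate 1 (95% exact interval 0.986 to 1.09), so they did not differ beyond counting error.

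ACSM3, the acyl-CoA synthetase, was at 83.67 and 81.08 CPM in WT, 48.65 and 50.73 CPM in AM, and 118.68 and 119.64 CPM in 6WP cells. The 3 groups were fully separated, with AM lowest and 6WP highest. ACSM3 fell in AM against WT cells (log2 fold change -0.73 ± 0.10, adjusted p = 0.00594, edgeR), a ratio of 0.603. The 6WP level was 1.45 times the WT level and 2.40 times the AM level, with fitted log2 fold changes of 0.53 ± 0.10 and 1.26 ± 0.10, so that the larger of these values contains the lower AM level. The 6WP libraries, at 3282 and 3395 counts, differed 1.01-fold (95% exact interval 0.961 to 1.06).

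CAPN5, the calpain, was at 8.08 and 10.38 CPM in WT, 9.90 and 12.19 CPM in AM, and 42.78 and 39.36 CPM in 6WP cells. WT and AM overlapped, and the test gave no call between them (log2 fold change 0.26 ± 0.18, adjusted p = 0.318, edgeR). In 6WP cells the mean was 4.45 times the WT and 3.72 times the AM mean, with fitted log2 fold changes of 2.15 ± 0.18 and 1.89 ± 0.17. Replicate 1 of 6WP was 1.09 times replicate 2 (95% exact interval 1.00 to 1.18). Together with GRB10, CAPN5 had 6WP libraries that agreed closely and an AM level not called different from WT.

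CCDC85A, the coiled-coil gene, was at 5.45 and 5.19 CPM in WT, 2.80 and 3.09 CPM in AM, and 16.34 and 12.93 CPM in 6WP cells. As in ACSM3, the groups were separated with AM lowest. It fell in AM against WT (log2 fold change -0.85 ± 0.20, adjusted p = 0.0284, edgeR). The 6WP mean was 2.75 times the WT mean and 4.97 times the AM mean, with fitted log2 fold changes of 1.46 ± 0.19 and 2.31 ± 0.20. Its 6WP libraries were 1.26-fold apart (95% exact interval 1.10 to 1.45), which is more than counting error and less than the distance to either control group.

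FIBIN, the secreted factor, was at 1.52 and 1.19 CPM in WT, 1.89 and 2.62 CPM in AM, and 17.28 and 6.06 CPM in 6WP cells. These levels rest on 34 and 26, 44 and 89, and 478 and 172 counts. Both 6WP libraries lay above the other 4, but replicate 1 was 2.85 times replicate 2 (95% exact interval 2.39 to 3.41). The ratio of means was 8.61 against WT and 5.17 against AM, and the fitted log2 fold changes were 3.10 ± 0.51 and 2.35 ± 0.47. Without 6WP replicate 1 these became 2.14 and 1.40. AM was not called different from WT (0.75 ± 0.54, adjusted p = 0.356, edgeR), although a fit to only these 2 groups gave an adjusted p of 0.0350.

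CLSTN2, the calsyntenin, was at 2.23 and 1.10 CPM in WT, 0.73 and 0.79 CPM in AM, and 2.82 and 10.33 CPM in 6WP cells, from 50 and 24, 17 and 27, and 78 and 293 counts. The 6WP replicate 1 library was near the higher WT library, and replicate 2 was 3.66 times replicate 1 (95% exact interval 2.84 to 4.76). The mean in 6WP was 3.94 times the WT and 8.61 times the AM mean, with fitted log2 fold changes of 1.97 ± 0.59 and 3.09 ± 0.64. Leaving out 6WP replicate 2 brought these to 0.73 and 1.84. AM lay under WT in both libraries without a call (-1.12 ± 0.70, adjusted p = 0.287, edgeR), and a fit to only these 2 groups gave 0.0166.

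PLCXD3, the phospholipase C X-domain gene, was at 3.84 and 3.12 CPM in WT, 0.09 and 0.18 CPM in AM, and 2.06 and 5.71 CPM in 6WP cells. The AM libraries held 2 and 6 counts, the former under the floor of 3, against 86 and 68 in WT and 57 and 162 in 6WP libraries. The WT libraries lay between the 6WP libraries, so the label of a gene raised by phleomycin did not hold for PLCXD3 against WT. Summed over libraries, the ratio of 6WP to WT was 1.12 (95% exact interval 0.908 to 1.39, counting error only), that of WT to AM was 24.9 (12.3 to 58.8) and that of 6WP to AM was 27.9 (13.9 to 65.5). PLCXD3 fell in AM against WT (log2 fold change -4.60 ± 0.67, adjusted p = 0.00668, edgeR), and the fitted 6WP values were 0.16 ± 0.44 against WT and 4.76 ± 0.66 against AM. Without 6WP replicate 2 the value against WT was -0.78.

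Across the 7 genes, 3 passed the test as lower in AM against WT (PLCXD3, CCDC85A and ACSM3) and 0 were higher (0 also at an unadjusted p under 0.05 and in DESeq2's Wald test), where 9.93% of all tested genes were lower and 7.74% higher. With 1 library left out, these 1457 and 1136 genes ranged from 55 (without AM replicate 2) to 3318 (without 6WP replicate 1) and from 8 (without WT replicate 1) to 3458 (without 6WP replicate 2). The AM libraries also enter the comparison of 6WP with AM, so a gene with a low AM level was more easily picked, and this count is not independent of the choice. Each of the 3 calls was lost when any WT or AM library was left out. The adjusted p then ranged from 0.0735 to 0.0877 for ACSM3, from 0.0632 to 0.0805 for PLCXD3 and from 0.153 to 0.170 for CCDC85A, with values of the same sign. An exact permutation test of 2 against 2 libraries cannot give a p below 0.333. Any pair of the 3 comparisons shares a group of libraries.

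**Figure D2:**
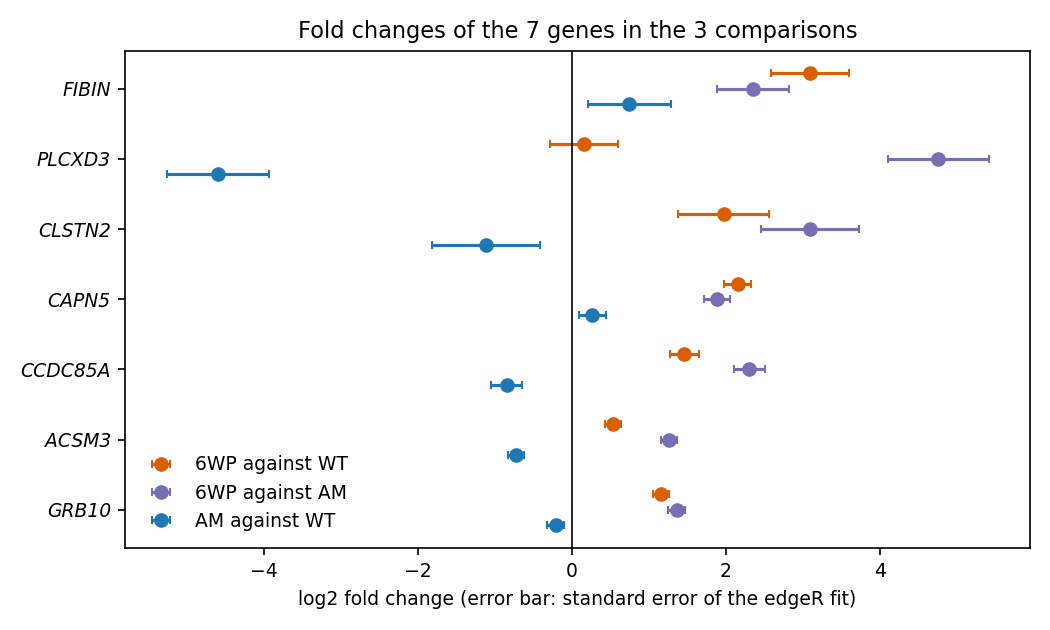
Fitted log2 fold changes (x axis) of the 7 genes for 6WP against either control and for AM against WT, with standard errors as bars. FIBIN, CAPN5 and GRB10 are above 0 in both 6WP comparisons and lie between -0.21 and 0.75 in AM against WT, while PLCXD3 is at 0.16 against WT, 4.76 against AM and -4.60 in AM against WT.

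The agreement of the 6WP libraries divided the genes. The absolute log2 difference between them was smaller in only 2.07% of tested genes than in ACSM3 (0.01), in 10.1% than in GRB10 (0.05), in 23.0% than in CAPN5 (0.12) and in 57.9% than in CCDC85A (0.34). It was smaller in 98.3% of tested genes than in PLCXD3 (1.44), in 98.6% than in FIBIN (1.50) and in 99.5% than in CLSTN2 (1.84). The latter 3 are also the genes with the fewest 6WP counts, and their exact intervals lie far from 1, so counting error alone does not span the differences. They did not go the same way, since replicate 1 was the higher library for FIBIN and replicate 2 for PLCXD3 and CLSTN2. The genes with close 6WP libraries were those with more counts, and the part that expression level had in the agreement was not tested.

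**Figure D3:**
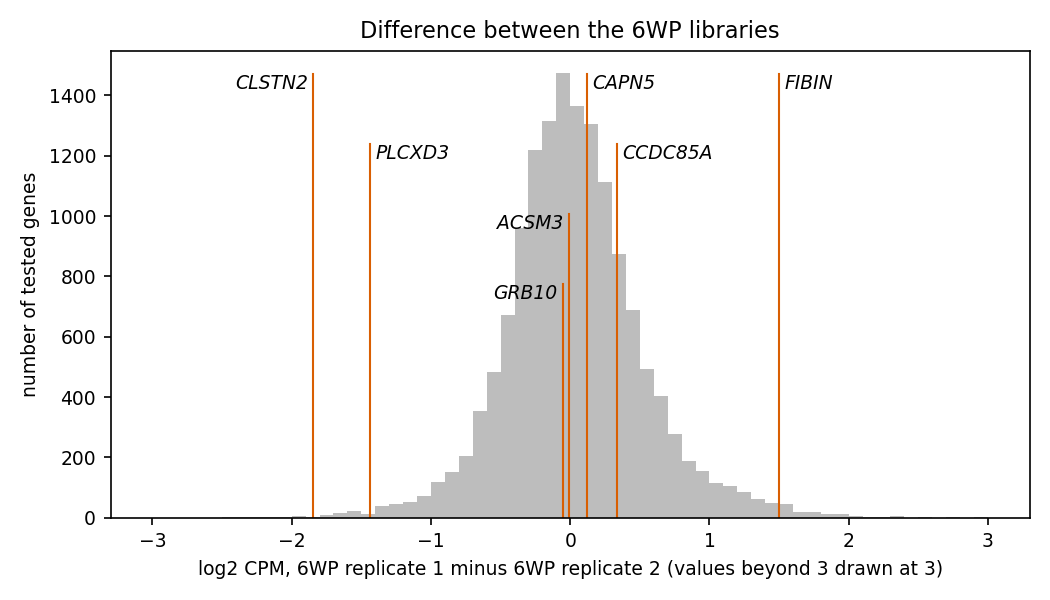
Histogram of the difference in log2 CPM between 6WP replicates 1 and 2 (x axis) over the 14672 tested genes (y axis, number of genes), with a line at the difference of each of the 7 genes (line heights carry no value). CAPN5, CCDC85A, ACSM3 and GRB10 lie between -0.05 and 0.34, FIBIN at 1.50, PLCXD3 at -1.44 and CLSTN2 at -1.84.

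Levels were compared between genes per kilobase of the main annotated transcript. In WT cells the order by mean CPM per kilobase was ACSM3 (32.5), GRB10 (9.72), CAPN5 (2.11), CCDC85A (1.29), FIBIN (0.456), PLCXD3 (0.452) and CLSTN2 (0.117). FIBIN and PLCXD3 were neighbours that did not differ beyond their spread. In 6WP cells the order began with ACSM3 (47.0), GRB10 (21.7) and CAPN5 (9.40), followed by FIBIN (3.92) and CCDC85A (3.56), whose libraries overlapped, and by PLCXD3 (0.504) and CLSTN2 (0.463), which overlapped too. In AM cells PLCXD3 was lowest with 0.0170 CPM per kilobase, below CLSTN2 with 0.0538.

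The bases before the starts of CLSTN2 and PLCXD3 are shown, a choice made after their values were seen. Both were higher in 6WP replicate 2, and both had AM libraries under the WT libraries, without a call for CLSTN2. The motifs were chosen after the sequences were seen, so the shares of windows given below do not test for a shared element. RefSeq promoter windows (GRCh38.p14) matched 4 of the 7 genes, CCDC85A, CLSTN2, PLCXD3 and GRB10, the last with 5 alternative starts, giving 8 windows. The 250 bases before the start are given 5′ to 3′ on the strand of the gene. Capitals mark TGACGTCA, the cAMP response element, in CLSTN2 and the 5-base core TGACG, here on the opposite strand, in PLCXD3.
CLSTN2, chr3:139934935-139935184, plus strand: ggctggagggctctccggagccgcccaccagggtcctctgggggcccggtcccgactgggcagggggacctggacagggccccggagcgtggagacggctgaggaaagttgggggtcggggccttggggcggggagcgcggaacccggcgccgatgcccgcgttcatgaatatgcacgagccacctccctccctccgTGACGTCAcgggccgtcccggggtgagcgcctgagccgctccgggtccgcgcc
PLCXD3, chr5:41510602-41510851, minus strand: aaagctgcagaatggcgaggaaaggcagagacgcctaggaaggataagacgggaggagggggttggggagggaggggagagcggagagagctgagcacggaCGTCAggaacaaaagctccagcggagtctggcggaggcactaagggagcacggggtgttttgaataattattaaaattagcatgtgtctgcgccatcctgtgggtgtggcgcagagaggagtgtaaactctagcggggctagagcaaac

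The element in CLSTN2 began 53 bases before the start, in a window with 74.8% GC, and 1.65% of all 35116 RefSeq windows held it on either strand. The core TGACG, which the element contains on both strands, was found in windows of CLSTN2, PLCXD3 and GRB10, and in 21.2% of all windows. In PLCXD3 it began 149 bases before the start, and that window had 56% GC. The ATF4-type composite element TGATGNAA, searched on both strands, was in 0 of the 8 windows and in 3.14% of all windows, the AP-1 element TGANTCA in 0 and 6.57%, and the E-box CACGTG in 0 and 6.34%. GGGCGG, the SP1 motif, was in 4 of the 8 windows, in CCDC85A, CLSTN2 and GRB10, and in 42.6% of all windows. These matches describe letters in the windows and not bound sites.

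Of the 7 genes, 0 are in the list of 52 ATF4 targets. For each gene, the 3 tested genes with the smallest root mean square difference in log2 CPM over the 6 libraries, after centring on WT, were named. This distance includes the 6WP levels that chose the 7 genes, and 36 of the 239 genes called higher in 6WP against WT are on the ATF4 list, so nothing is read from a gene of that list being near. For FIBIN these were LOC100132354 (0.356), CALCA (0.424), the calcitonin gene, and CHAC1 (0.504), a glutathione-degrading enzyme of the ATF4 list. For CAPN5 they were PCK2 (0.276), mitochondrial phosphoenolpyruvate carboxykinase, ARHGEF2 (0.280) and STC2 (0.312), the glycoprotein stanniocalcin, and PCK2 and STC2 are on the ATF4 list. For GRB10 they were SNHG12 (0.103), ZNF192P1 (0.110) and ALDH1L2 (0.121), a mitochondrial folate enzyme on the ATF4 list. ALDH1L2 was at 118 and 120 CPM in WT, 111 and 99.6 in AM, and 239 and 226 in 6WP cells. An order of groups like that of GRB10 follows from the distance.

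The closest genes of CCDC85A and ACSM3 were also low in AM cells, which follows from a distance that includes the AM libraries. For CCDC85A these were FGF18 (0.170), a fibroblast growth factor, BCAT1 (0.227), the cytosolic branched-chain aminotransferase, and HSD17B14 (0.286). BCAT1 was at 7.81 and 5.97 CPM in WT, 4.87 and 4.53 in AM, and 18.7 and 18.3 in 6WP cells. For ACSM3 they were ZNF558 (0.0591), WBSCR27 (0.0748) and RIMS4 (0.0813), the smallest differences of any of the 7. For CLSTN2 they were KIAA1199 (0.467), KRTAP5-AS1 (0.567) and CPLX2 (0.577), a complexin of synaptic vesicle release. All had more in 6WP replicate 2, as CLSTN2 had, and the distance includes that library. For PLCXD3 the closest were NCMAP (0.817), STON1 (0.876) and PELI2 (0.955), all further from its profile than the closest genes of the other 6. STON1 was at 3.08 and 2.99 CPM in WT, 0.344 and 0.442 in AM, and 1.16 and 3.45 in 6WP cells.

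The ATF4 list itself is given for scale. By edgeR's quasi-likelihood test, of its 50 tested genes 36 were higher and 0 lower in 6WP against WT, 32 higher and 1 lower in 6WP against AM, and 24 higher and 1 lower in AM against WT, and its medians were 0.93, 0.55 and 0.45 on the log2 scale. In 6WP against WT, DESeq2's Wald test gave 41 higher and 1 lower, and an unadjusted p under 0.05 gave 43 and 1. Over all tested genes, 1.63% were higher and 1.37% lower in 6WP against WT, and 11.7% were higher and 9.68% lower in 6WP against AM, with medians of 0.01, 0.05 and -0.00 in the 3 comparisons. These shares moved when single libraries were left out. The 239 higher and 201 lower genes in 6WP against WT became 0 and 0 without either WT library, and ranged up to 1852 and 2082 without a 6WP library. The 1711 higher and 1420 lower genes in 6WP against AM became 54 and 62 without AM replicate 2, and 3479 and 3328 without 6WP replicate 1. The named members of the list, CHAC1 (2.53), DDIT4 (1.92), an mTORC1 inhibitor, and GDF15 (1.88), a stress cytokine, had the largest log2 fold changes in 6WP against WT (adjusted p = 0.00341, 0.00448 and 0.0430, edgeR), and that of GDF15 was 1.03 without 6WP replicate 1. Of the 7 genes, FIBIN (3.10), CAPN5 (2.15) and CLSTN2 (1.97) had fitted changes above 1.88, which follows from how they were picked. FIBIN was at 2.14 without 6WP replicate 1, and CLSTN2 at 0.73 without 6WP replicate 2. Of the list's calls in 6WP against WT, 0 were left without either WT library and 25 without either AM library, and in 6WP against AM 5 and 6 were left without AM replicates 1 and 2.

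The relatives of the 7 genes were listed by family, whatever their values. Of the 29 listed family members, 28 were in the table and 13 were tested, and 0 passed in 6WP against WT, with a median of 0.03 on the log2 scale. That count was 0 in edgeR's quasi-likelihood, exact and likelihood ratio tests and in DESeq2's Wald test, and 0 also at an unadjusted p under 0.05, but it was 1 without 6WP replicate 1 and 4 without 6WP replicate 2. By edgeR's quasi-likelihood test, 2 were higher and 0 lower in 6WP against AM, and 0 were higher and 2 lower in AM against WT, with medians of 0.18 and -0.10. DESeq2's Wald test gave 2 higher and 1 lower in the former, the exact and likelihood ratio tests of edgeR gave 3 lower in the latter, and an unadjusted p under 0.05 gave 3 higher and 1 lower, and 3 higher and 3 lower. Among all tested genes the quasi-likelihood test called 1.63% higher and 1.37% lower in 6WP against WT. It called 11.7% and 9.68% in 6WP against AM, and 7.74% and 9.93% in AM against WT. The 2 relatives called by that test were the same in both comparisons with AM. These comparisons share the AM libraries, so a low AM level favours both calls. CLSTN3, the calsyntenin paralog, was at 25.4 and 28.2 CPM in WT, 7.41 and 10.2 in AM, and 22.2 and 31.9 in 6WP cells. CLSTN3 fell in AM against WT (-1.60 ± 0.22, adjusted p = 0.00590) and was higher by 1.61 in 6WP against AM (SE 0.22, adjusted p = 0.00464).

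CAPN2, the catalytic subunit of m-calpain, was at 28.7 and 34.8 CPM in WT, 11.4 and 10.2 in AM, and 22.3 and 35.0 in 6WP cells. CAPN2 fell in AM against WT (-1.56 ± 0.22, adjusted p = 0.00658) and was higher by 1.41 in 6WP against AM (SE 0.22, adjusted p = 0.00696). CLSTN3 and CAPN2 thus had low AM levels and 6WP levels around WT, the order seen in PLCXD3, whereas CAPN5 had no call in AM. With 1 library left out, the calls in AM against WT were lost in 4 of 6 fits for each gene. The log2 fold changes in AM against WT then ranged from -1.69 to -1.39 for CAPN2 and from -1.87 to -1.40 for CLSTN3. The calls in 6WP against AM were lost in 2 of 6 fits for CAPN2 and 1 of 6 for CLSTN3. Of the other calpain genes, CAPN1, CAPN7, CAPN10 and CAPN15, the small subunit CAPNS1 and the inhibitor CAST were tested without a call by edgeR's quasi-likelihood test in any comparison.

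Of the ACSM genes in the table, only ACSM3 passed the filter on low counts. ACSM2A, ACSM2B, ACSM4 and ACSM5 had 0 counts in all 6 libraries, and ACSM1 had at most 2 counts in a library, so none could be tested. PLCXD2, a paralog of PLCXD3, had at most 7 counts. The adaptors GRB7 and GRB14, which share the domain structure of GRB10, had log2 fold changes of -0.09 ± 0.12 and -0.28 ± 0.23 in 6WP against WT without a call, where GRB10 was at 1.16. CCDC85B and CCDC85C were at 0.49 ± 0.25 and 0.17 ± 0.11 in 6WP against WT, also without a call, beside 1.46 for CCDC85A. The higher values of GRB10 and CCDC85A follow from how they were picked.

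**Figure D4:**
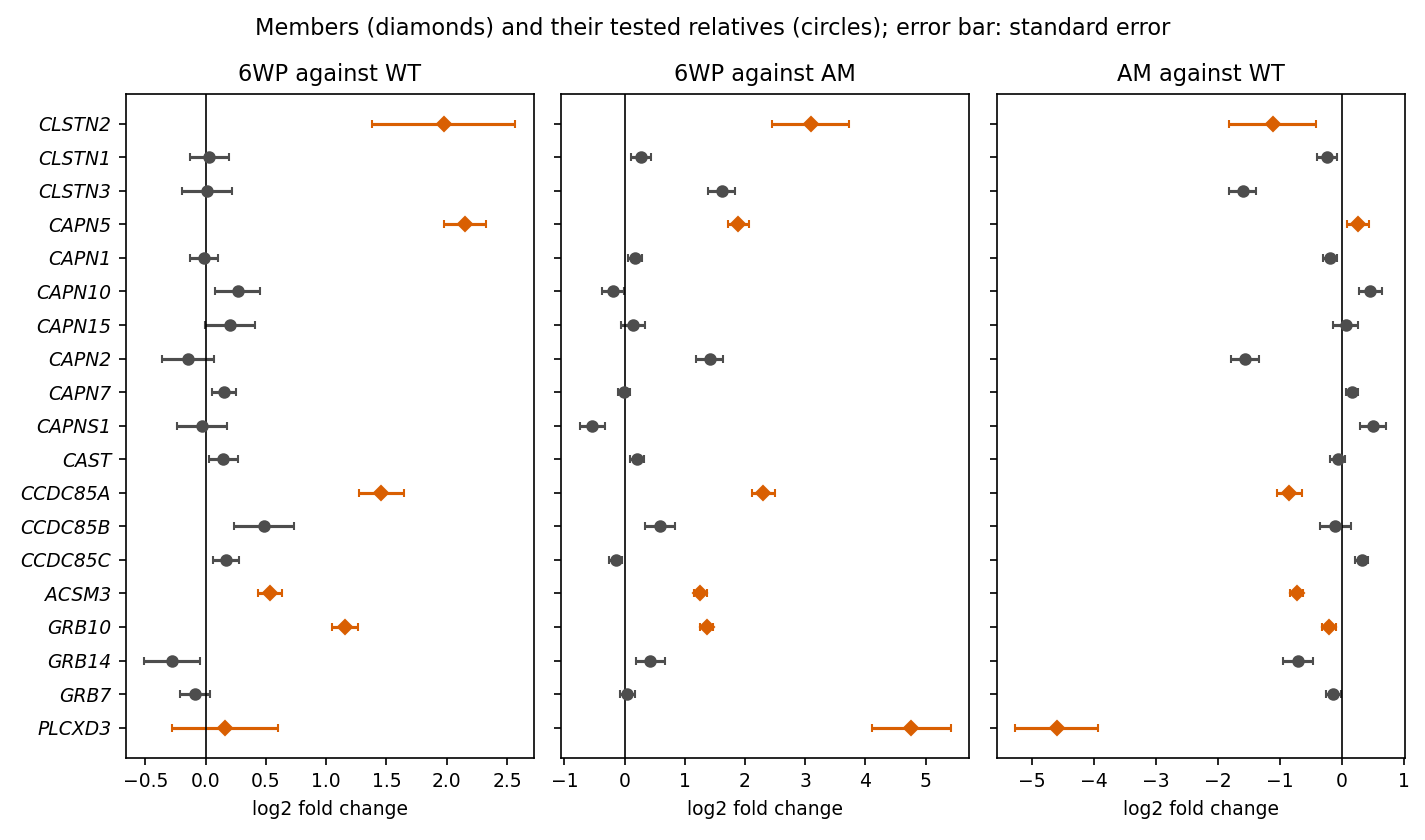
Fitted log2 fold changes (x axes, a range of its own for each comparison) with standard errors of 6 of the 7 genes (diamonds) and their tested relatives (circles) for 6WP against either control and for AM against WT. In 6WP against WT all relatives lie between -0.28 and 0.49, and CLSTN3 and CAPN2 stand out in both comparisons with AM.

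In the pathway of GRB10, insulin and IGF receptor signalling, 37 of 41 listed genes were tested, and 0 were higher and 1 lower in 6WP against WT by edgeR's quasi-likelihood test, with a median of 0.03. At an unadjusted p under 0.05 these counts were 2 and 3, and in DESeq2's Wald test 1 and 2. FOXO1, a transcription factor restrained by insulin signalling, was at 17.8 and 19.6 CPM in WT, 10.7 and 9.57 in AM, and 10.9 and 10.2 in 6WP cells. It fell in 6WP against WT (-0.82 ± 0.15, adjusted p = 0.0328) and in AM against WT (-0.88 ± 0.15, adjusted p = 0.00985), so the fall was present in untreated AM cells as well. In 6WP against AM 4 were higher, IGF1R, IRS1, IRS2 and FOXO3, and 3 lower, IGFBP3, PIK3CB and RHEB, and in AM against WT 2 were higher and 4 lower. These names were chosen after their values were seen. The shares of all tested genes called higher and lower were 11.7% and 9.68% in 6WP against AM. They were 7.74% and 9.93% in AM against WT, and 1.63% and 1.37% in 6WP against WT. IGF1R, a receptor that GRB10 binds, was at 108 and 114 CPM in WT, 38.7 and 42.3 in AM, and 60.4 and 173 in 6WP cells, with a wide gap between the 6WP libraries that GRB10 did not have. It was called in 6WP against AM (1.53 ± 0.40, adjusted p = 0.0306) and in AM against WT (-1.45 ± 0.40, adjusted p = 0.0410), and without 6WP replicate 2 the value against AM was 0.54.

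In fatty acid activation and beta-oxidation, the pathway of ACSM3, 31 of 33 genes were tested. In 6WP against WT 1 was higher and 0 lower by edgeR's quasi-likelihood test, with a median of -0.01, and DESeq2's Wald test gave 1 and 4 and an unadjusted p under 0.05 gave 5 and 6. The gene was GLYATL1, a glycine N-acyltransferase-like enzyme that uses acyl-CoA, at 102 and 95.6 CPM in WT, 122 and 123 in AM, and 172 and 152 in 6WP cells (0.71 ± 0.11, adjusted p = 0.0202). In 6WP against WT, 1.63% of all tested genes were higher and 1.37% lower. In 6WP against AM 4 genes of this list were higher and 3 lower, and in AM against WT 2 were higher and 3 lower. Of all tested genes, 11.7% were higher and 9.68% lower in 6WP against AM. In AM against WT 7.74% were higher and 9.93% lower. Of the 4, ACSF2 (1.39) and ACSS1 (1.93), acyl-CoA and acetyl-CoA synthetases of mitochondria, were lower in AM against WT (-1.38 and -1.96), as ACSM3 was. These comparisons share the AM libraries. ACSL3, another acyl-CoA synthetase of the list, went the other way. It was at 147 and 127 CPM in WT, 219 and 209 in AM, and 106 and 92.8 in 6WP cells. These names were chosen after their values were seen.

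Of 14 phosphoinositide phospholipases C, listed beside PLCXD3, 11 were tested and 0 passed in 6WP against WT (median -0.10) by edgeR's quasi-likelihood test and DESeq2's Wald test, with 1 at an unadjusted p under 0.05. Of the 11, 2 were higher and 0 lower in 6WP against AM, and 0 were higher and 2 lower in AM against WT. Both sets were PLCB1 and PLCL1, named after their values were seen. PLCL1 was at 1.70 and 1.52 CPM in WT, 0.258 and 0.559 in AM, and 1.19 and 1.34 in 6WP cells, so it too was low in AM and near WT in 6WP cells (AM against WT -1.90 ± 0.40, adjusted p = 0.0183). Of 30 genes of calsyntenin cleavage, transport and synaptic adhesion, 26 were tested and 0 passed in 6WP against WT (median 0.13) by edgeR's quasi-likelihood test, where DESeq2's Wald test gave 2 higher and an unadjusted p under 0.05 gave 6 higher and 1 lower. In this list 8 were higher and 0 lower in 6WP against AM (median 0.31), and 1 was higher and 5 lower in AM against WT (median -0.23). Of all tested genes, 11.7% were higher and 9.68% lower in 6WP against AM. In AM against WT 7.74% were higher and 9.93% lower. The 5 that fell in AM were the gamma-secretase subunit APH1B, the kinesin subunits KIF5A, KIF5C and KLC4, and the adhesion protein NLGN1, again named after their values were seen. All 5 were among the 8 that were higher in 6WP against AM. Both comparisons use the same AM libraries, so low AM values favour both calls. This overlap, and that of PLCB1 and PLCL1, is therefore not a separate result. Over the 4 pathways together, the 2 calls in 6WP against WT became 0 with any 1 WT or AM library left out and 27 and 26 without 6WP replicates 1 and 2, the 24 calls in 6WP against AM became 1 and 2 without AM replicates 1 and 2, and the 19 in AM against WT became 0 or 1 with any 1 WT or AM library left out.

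Genes next to the 7 were examined as 3 tested neighbours on each side, 42 in all. In 6WP against WT 2 were higher and 0 lower by edgeR's quasi-likelihood test, with a median of 0.01, where DESeq2's Wald test gave 3 and 2 and an unadjusted p under 0.05 gave 6 and 4. By the quasi-likelihood test, 1.63% of all tested genes were higher and 1.37% lower. The 2 neighbours were DDC, aromatic amino acid decarboxylase, 24658 bp from GRB10, and SLC25A36, a mitochondrial pyrimidine nucleotide carrier, 364433 bp from CLSTN2. DDC was at 11.2 and 11.0 CPM in WT, 8.57 and 9.36 in AM, and 20.4 and 17.9 in 6WP cells, which gave 0.78 ± 0.15 against WT (adjusted p = 0.0378) and 1.09 ± 0.15 against AM (adjusted p = 0.00469). DDC therefore had the order of groups of its neighbour GRB10. SLC25A36 was at 99.8 and 101 CPM in WT, 96.3 and 91.7 in AM, and 141 and 175 in 6WP cells, or 0.65 ± 0.13 against WT (adjusted p = 0.0404). Both calls against WT were lost in a fit to only these 2 groups (adjusted p = 0.116 and 0.118) and with any 1 WT or AM library left out.

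In 6WP against AM, 10 neighbours were higher and 5 lower, and in AM against WT 2 were higher and 8 lower, with medians of 0.18 and -0.08. The shares of all tested genes called higher and lower were 11.7% and 9.68% in 6WP against AM. They were 7.74% and 9.93% in AM against WT. MYO7A, an unconventional myosin gene 2091 bp from CAPN5, was at 1.47 and 1.52 CPM in WT, 0.603 and 0.530 in AM, and 2.57 and 2.40 in 6WP cells. It was higher in 6WP against AM by 2.13 (SE 0.29, adjusted p = 0.00462), was not called against WT (0.73 ± 0.26, adjusted p = 0.161) and fell in AM against WT (-1.40, adjusted p = 0.0216). CAPN5 itself had no call in AM against WT. Within 1 Mb of their member, SLC5A12, RPL37, OXCT1, NMNAT3, ZBTB38 and PAK1 were also higher in 6WP against AM, by 0.62 to 1.98, and COPB2, EFEMP1 and FIGNL1 were lower, by values from -0.91 to -0.57. FIGNL1 lies next to GRB10 on the same side as DDC and was lower where DDC was higher. The 15 calls against AM became 1 and 0 without AM replicates 1 and 2, 29 without 6WP replicate 1, and the 10 in AM against WT became 0 with any 1 WT or AM library left out.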

How the data were processed

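RNA from 22Rv1 cells was sequenced as stranded, 100 bp single-end libraries in 3 groups of 2 (WT, AM and 6WP). Per the study's methods and the submitters' processing notes, the authors aligned reads to hg38 with STAR 2.5.3a, assembled transcripts with StringTie 1.3.3 and counted with featureCounts 1.5.3. The strand setting, the annotation and the treatment of reads with several matches are not given in the sources used here. The table that the authors deposited holds unnormalized read counts for each symbol, and all 6 columns were used. Reads shared with overlapping genes could be assigned to either gene.

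From these counts, edgeR 4.0.16 in R 4.3.3 was used with TMM scaling, filterByExpr over the 3 groups and a quasi-likelihood model of all 6 libraries without covariates, as the study's methods name edgeR and TMM. Tests were two-sided and adjusted by Benjamini-Hochberg over the 14672 tested genes, with a threshold of 0.05. Each SE was obtained from the log2 fold change and the F statistic. The contrasts of 6WP that chose the 7 genes were not tested for them. The pipeline was checked on simulated counts with known changes in AM against WT. It recovered 75 of 100 genes changed by 1 on the log2 scale and 95 of 100 changed by 2. Of its 186 calls, 16 were false. Each simulated gene had the same spread in all 3 groups, whereas in these data the 6WP libraries were further apart. The recovery therefore does not measure performance under that unequal spread. The 7 genes, the gene lists and the comparisons were chosen with earlier results of these data known, and the promoter motifs after the sequences were seen.

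Named genes were all 7, relatives called in any comparison, the 3 largest calls of each pathway list in 6WP against WT, called neighbours and the 3 most alike genes of each. Of the called neighbours, those beyond 1 Mb are counted and not named. Symbols were matched to GENCODE on GRCh38, the build of the files, for 87.2% of tested genes by symbol and 6.30% by an older symbol, and 6.54% had no match. Count ratios carry exact binomial 95% intervals, which cover counting error only. Alternatives were DESeq2's size factors, upper quartile and library size scaling, other filters, DESeq2 1.42.0, edgeR's exact and likelihood ratio tests, a fit to 2 groups, a replicate block and each library left out in turn.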

Additional observations from a re-analysis of the deposited data

How the results depend on the processing

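The fitted 6WP values of the 7 genes kept their sign under every alternative tried except PLCXD3 against WT, which ranged from -0.78 without 6WP replicate 2 to 0.70 without 6WP replicate 1. Their median log2 fold change against WT, 1.46, became 1.71 with at least 10 counts in every library, a filter that drops PLCXD3, and ranged from 1.11 to 1.50 with 1 library left out. The median against AM, 2.31, ranged from 1.82 to 2.39 with 1 library left out. The count of 3 genes lower in AM against WT ranged from 0 to 4 with 1 library left out, and the count of 0 higher ranged from 0 to 1 and was 1 in a fit to only 2 groups. The fit to only 2 groups moved other counts as well. It gave 20 in place of 33 ATF4 targets in 6WP against AM and 42 in place of 25 in AM against WT, 9 in place of 24 pathway genes in 6WP against AM, 0 in place of 2 in 6WP against WT and 53 in place of 19 in AM against WT, 7 in place of 2 relatives in AM against WT, and 0 in place of 2 neighbours in 6WP against WT and 23 in place of 10 in AM against WT. Pathway calls in 6WP against WT numbered 6 without a filter, 10 in DESeq2's Wald test, and 11 in both the exact and the likelihood ratio test of edgeR, and neighbour calls numbered 4, 5, 5 and 5. The cause of these shifts was not tested.

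With 1 library left out, called ATF4 targets ranged from 0 to 45 in 6WP against WT, 5 to 39 in 6WP against AM and 0 to 42 in AM against WT. Pathway genes ranged from 0 to 27, 1 to 52 and 0 to 56, relatives from 0 to 4, 0 to 5 and 0 to 7, and neighbours from 0 to 10, 0 to 29 and 0 to 23 in the same order. The highest counts came without a 6WP library and the lowest without a WT or AM library. Either omission leaves 1 group with 1 library, which is assumed to vary like the others, and the cause of the difference was not tested. Deviations of equally numbered libraries correlated at 0.0395 between WT and AM, 0.0873 between WT and 6WP and -0.0206 between AM and 6WP. With 2 libraries in each group, these values cannot decide whether equally numbered libraries shared a course or a batch. A replicate block left 0 of the 2 neighbour calls in 6WP against WT (adjusted p = 0.0501 for DDC and 0.0504 for SLC25A36). Upper quartile scaling moved the median of all genes in 6WP against AM from 0.05 to 0.14 and in AM against WT from -0.00 to -0.09. Depth limits PLCXD3 in AM cells, at 2 and 6 counts, and the AM levels of CLSTN2, at 17 and 27 counts.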
